A study of Mus musculus with 6 samples.

Results

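The brakes of the G1 phase were followed across 2 groups of cultured mouse angiosarcoma cells: 10 genes in all, of 55401 gene identifiers in the deposited count table. They were taken by symbol as members of 3 named families. They are the 3 Cip/Kip inhibitors Cdkn1a, Cdkn1b and Cdkn1c, the 4 Ink4 inhibitors Cdkn2a, Cdkn2b, Cdkn2c and Cdkn2d, and the 3 pocket proteins Rb1, Rbl1 and Rbl2. The cells were of the line ADC106, which the labels describe as angiosarcoma, a cancer arising from endothelium. They were transfected with 12.5 nM of a microRNA mimic, a short synthetic duplex that loads Argonaute with a chosen guide strand, and RNA was taken 3 days later for poly(A)-enriched RNA sequencing. One group received a mimic labelled NC (genotype label WT) and the other an miR-497 mimic (genotype label miR-497 overexpression), with 3 libraries in each. The study used 1 cell line, and the labels do not say whether the libraries came from separate cultures, so the p-values below measure the spread between these libraries, which may be technical.

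Entry into S phase is driven by cyclin-dependent kinases that phosphorylate pocket proteins and so release E2f transcription factors. Ink4 proteins bind Cdk4 and Cdk6 and keep them from D-type cyclins. Cip/Kip proteins bind cyclin-Cdk complexes more broadly and are best known as inhibitors of Cdk2. The pocket protein made from Rb1 holds the activating E2f factors, whereas those made from Rbl1 and Rbl2 mostly partner E2f4 and E2f5 and join the MuvB core in the DREAM complex, which silences cell cycle genes in quiescent cells. MicroRNAs of the miR-497 seed family are known for repressing D- and E-type cyclins and Cdk6, the kinase side of the same switch.

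The guide strand of miR-497 and its relatives share a seed, bases 2 to 8, which is the part that selects targets and is shown in capitals (sequences from RefSeq, GRCm38.p6).
mmu-miR-497a-5p: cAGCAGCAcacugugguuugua
mmu-miR-195a-5p: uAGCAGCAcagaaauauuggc
mmu-miR-16-5p: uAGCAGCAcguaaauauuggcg
A transcript pairs with this seed through the 7-base word TGCTGCT, or GCTGCTA when the base opposite the first position is A; TGCTGCTA holds both and is called an 8mer. In the longest annotated 3' UTR of each gene (GENCODE M21, GRCm38), 3 of the 10 members held such a word, and each held 1. They are shown because they are the members open to direct pairing in the 3' UTR by this rule, with the word in capitals and the transcript strand read 5' to 3'.
Cdkn1a: aatctggtgatcTGCTGCTcttttccccc
Cdkn2b: atctccacaagcTGCTGCTgcaggggaac
Rbl2: taggtaacttcaTGCTGCTctacagcacc
The words lie on the plus strand at chr17:29100089-29100095 in Cdkn1a, on the minus strand at chr4:89306740-89306746 in Cdkn2b and on the plus strand at chr8:91123690-91123696 in Rbl2. No member had an 8mer in this window. Across the tested genes with an annotated 3' UTR, 28.1% of 12859 held at least 1 of these words, so 3 of 10 members is close to the general share.

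Library totals ran from 25777676 to 36159499 counts. The 12 endothelial markers examined were all expressed, and their summed level was 9142 to 9848 CPM (counts scaled to the size of the library, adjusted by TMM) in the NC libraries and 9061 to 9449 CPM with miR-497. The markers changed singly within that sum, 7 higher and 3 lower, from -0.94 for Egfl7 to 1.03 for Emcn on the log2 scale. Leukocyte markers summed to 8.71 to 9.59 CPM with NC and 15.1 to 19.9 CPM with miR-497, most of it Cd68, while Cd3e and Itgam were at 0 counts. Epithelial markers summed to at most 1.63 CPM. Fibroblast and mural markers summed to 217 to 230 CPM with NC and 260 to 308 CPM with miR-497, with Lum at 0; their part in the results below was not tested. Of 14661 genes tested by edgeR (quasi-likelihood, Benjamini-Hochberg adjustment, threshold 0.05), 49.8% were called, 26.0% as lower with miR-497 and 23.8% as higher.

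All 10 members passed the filter on low counts. With the miR-497 mimic, 5 of them were lower, where 26.0% of all tested genes were, and 1 was higher, where 23.8% were. The 5 lower members were the Ink4 inhibitors Cdkn2b, Cdkn2c and Cdkn2d, the Cip/Kip inhibitor Cdkn1b and the pocket protein Rbl1. Rb1 was the member called higher, and Cdkn1a, Cdkn1c, Cdkn2a and Rbl2 were not called. Thus 6 of 10 members were called in either direction, where 49.8% of all tested genes were, which is near that background. The median log2 fold change of the members was -0.33, against -0.02 for all tested genes. The groups did not overlap for 7 members, where 57.4% of all tested genes did not: 5 members in the lower direction, against 29.6%, and Cdkn1a and Rb1 in the higher direction, against 27.8%.

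**Figure D1:**
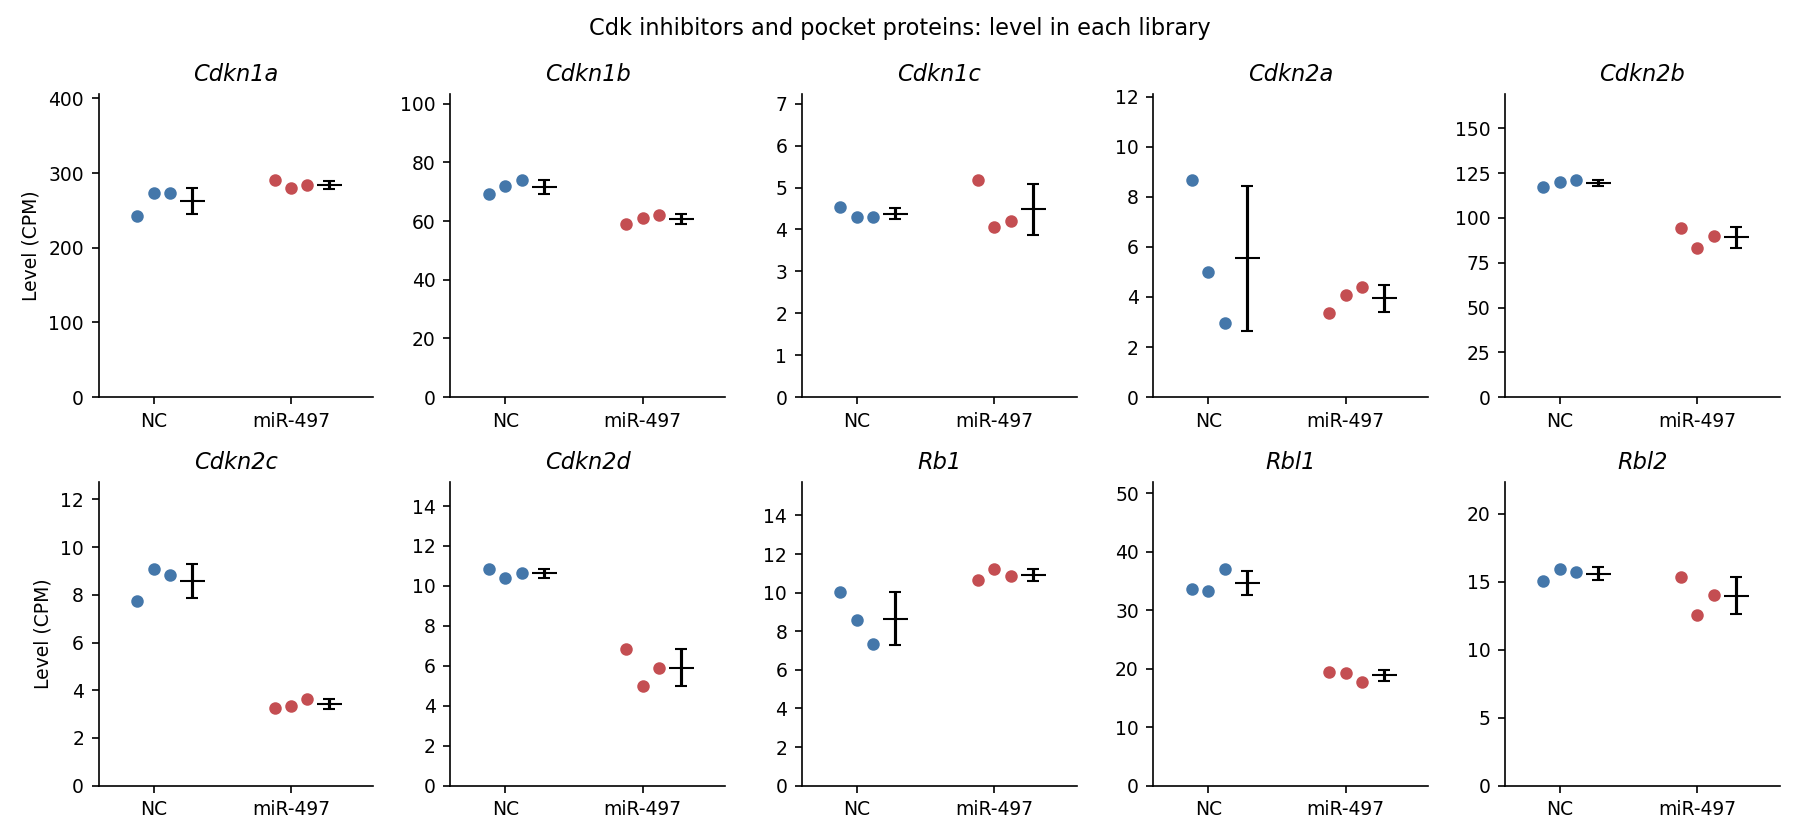
Level of each of the 10 genes in CPM (y axis, from 0) in the 3 NC libraries (blue) and the 3 miR-497 libraries (red); the bar beside each group is the mean with 1 SD. Cdkn2c, Cdkn2d, Rbl1, Cdkn2b and Cdkn1b sit lower in all 3 miR-497 libraries, Cdkn1a and Rb1 higher, and the NC libraries spread widely for Cdkn2a.

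Among the Ink4 inhibitors, Cdkn2c (ENSMUSG00000028551), which encodes p18Ink4c, had the steepest fall of any member. Its level was 7.75, 9.09 and 8.84 CPM in NC libraries 1 to 3 and 3.26, 3.34 and 3.64 CPM in miR-497 libraries 1 to 3. Every miR-497 value was below every NC value by a wide margin, and expression fell by 60.1%. The log2 fold change was -1.32 (SE 0.160, 95% interval -1.66 to -0.99, edgeR adjusted p = 2.9e-06). It was the only member called at least 2-fold lower, where 5.19% of all tested genes were; no member was at least 2-fold higher, where 3.63% were. It rests on 249 to 332 counts per NC library and 82 to 111 per miR-497 library.

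Cdkn2d (ENSMUSG00000096472) encodes p19Ink4d, an inhibitor that rises and falls through the cell cycle. It had 10.9, 10.4 and 10.7 CPM with NC and 6.84, 5.00 and 5.87 CPM with miR-497. The groups were well apart, with more scatter on the miR-497 side (CV 15.6% against 2.13%). Expression fell by 44.6%, which is -0.85 on the log2 scale with an SE of 0.141 (edgeR adjusted p = 8.3e-05).

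Cdkn2b (ENSMUSG00000073802), which encodes p15Ink4b, the inhibitor known for its induction by TGF-beta, was far more abundant. Its level was 117, 120 and 121 CPM with NC and 94.6, 83.3 and 89.7 CPM with miR-497. Expression fell by 25.4%, which is -0.42 on the log2 scale with an SE of 0.0576 (edgeR adjusted p = 1.1e-05). The groups did not overlap, and the counts behind them, 2378 to 4384 per library, make this a small but precise difference. In these bulk libraries, fewer cells expressing a gene and less RNA per cell cannot be told apart.

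Cdkn2a (ENSMUSG00000044303) encodes both p16Ink4a and the p53-stabilising protein Arf from overlapping reading frames, and a count per gene sums both. Its NC libraries disagreed with each other, at 8.66, 5.01 and 2.95 CPM (287, 183 and 83 counts, CV 52.2%). The miR-497 libraries, at 3.34, 4.09 and 4.40 CPM, lay inside that range. The log2 fold change of -0.49 (SE 0.286, 95% interval -1.10 to 0.11, edgeR adjusted p = 0.17) was not called, and single NC libraries decided it. Without NC library 1 it was -0.03 (edgeR adjusted p = 0.94), and without NC library 3 it was -0.77 (edgeR adjusted p = 0.0085). The gene was expressed in all 6 libraries. Mtap, its neighbour, was expressed at 125 ± 6.72 CPM with NC and 116 ± 10.5 CPM with miR-497 (SD, n = 3) and was not called (-0.11, SE 0.0655, edgeR adjusted p = 0.17).

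Of the Cip/Kip inhibitors, 1 of 3 was called, where 49.8% of all tested genes were. Cdkn1a (ENSMUSG00000023067), which encodes p21, the inhibitor that p53 switches on after DNA damage, had the highest CPM of the 10. It had 243, 273 and 273 CPM with NC and 290, 279 and 284 CPM with miR-497. All 3 miR-497 values were above the NC values, but the gap to the nearest NC library was 6.26 CPM, smaller than the SD among the NC libraries of 17.2 CPM. The log2 fold change of 0.11 (SE 0.0562, 95% interval -0.01 to 0.23, edgeR adjusted p = 0.11) was not called. That interval leaves room for a rise of up to 0.23 on the log2 scale. With upper-quartile scaling the gene was called (0.16, edgeR adjusted p = 0.016), as it was with offsets for GC content and length (0.18, edgeR adjusted p = 0.028). Without NC library 1 the value was 0.05 (edgeR adjusted p = 0.51).

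Cdkn1b (ENSMUSG00000003031) encodes p27, which restrains Cdk2 in resting cells and is destroyed through Skp2 as cells enter S phase. Its level was 69.3, 72.0 and 73.9 CPM with NC and 58.9, 61.0 and 62.1 CPM with miR-497. The groups did not overlap, and expression fell by 15.4%, which is -0.24 on the log2 scale with an SE of 0.0607 (edgeR adjusted p = 0.0032). With per-library offsets for GC content and length the difference was -0.15 and no longer called (edgeR adjusted p = 0.083). Cdkn1c (ENSMUSG00000037664) encodes p57 from an imprinted gene. It had the lowest NC mean of the members by CPM, with values of 4.53, 4.30 and 4.30 CPM with NC and 5.17, 4.06 and 4.20 CPM with miR-497. The groups overlapped (log2 fold change 0.03, SE 0.187, 95% interval -0.37 to 0.43, edgeR adjusted p = 0.91), and at 121 to 157 counts per library a change inside that interval was not detectable.

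The pocket proteins went in different directions. Rbl1 (ENSMUSG00000027641) encodes p107, the pocket protein that is most abundant in cycling cells and is itself an E2f target. It had 33.5, 33.3 and 37.1 CPM with NC and 19.5, 19.3 and 17.8 CPM with miR-497. The 2 sets of libraries were far apart relative to their spread, and expression fell by 45.6% (log2 fold change -0.88, SE 0.0804, 95% interval -1.05 to -0.71, edgeR adjusted p = 1.2e-07). This was the smallest adjusted p of the 10.

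Rb1 (ENSMUSG00000022105), the retinoblastoma gene itself, had 10.0, 8.57 and 7.32 CPM with NC and 10.7, 11.2 and 10.9 CPM with miR-497. All 3 miR-497 libraries were above the NC libraries, but NC library 1 came within 0.618 CPM of them. The difference of 0.33 on the log2 scale, with an SE of 0.132, was close to the threshold (edgeR adjusted p = 0.045). It was not called with library totals as the only scaling (edgeR adjusted p = 0.070), with the replicate number as a block (0.35, edgeR adjusted p = 0.056), or in 5 of the 6 fits that left out 1 library, where the adjusted p ran from 0.016 to 0.16 over the 6. Of these 6 fits, only the one without NC library 1 kept the call, and the direction was the same in each of these fits.

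Rbl2 (ENSMUSG00000031666) encodes p130, the pocket protein of resting cells. It had 15.1, 15.9 and 15.7 CPM with NC and 15.3, 12.6 and 14.0 CPM with miR-497, and the groups overlapped. The log2 fold change of -0.16 (SE 0.102, 95% interval -0.38 to 0.06, edgeR adjusted p = 0.21) was not called. The strand setting of the counting is not given in the sources used here, which matters for genes whose exons lie under a gene on the other strand. This was 20.97% of the exon bases of Rbl2, under Gm45464, at 0 counts in every library, and Aktip, which rose (0.78, SE 0.0845, edgeR adjusted p = 8.2e-07). For Rb1 it was 14.9%, under Rcbtb2, which was not called (-0.07, edgeR adjusted p = 0.38), and Lpar6, listed at 0. For Cdkn1c and Cdkn1a it was 30.7% and 7.68%, in both cases under genes listed at 0 in all 6 libraries. The other 6 members had no such overlap. A listed 0 does not show that an overlapping gene gave no reads.

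**Figure D2:**
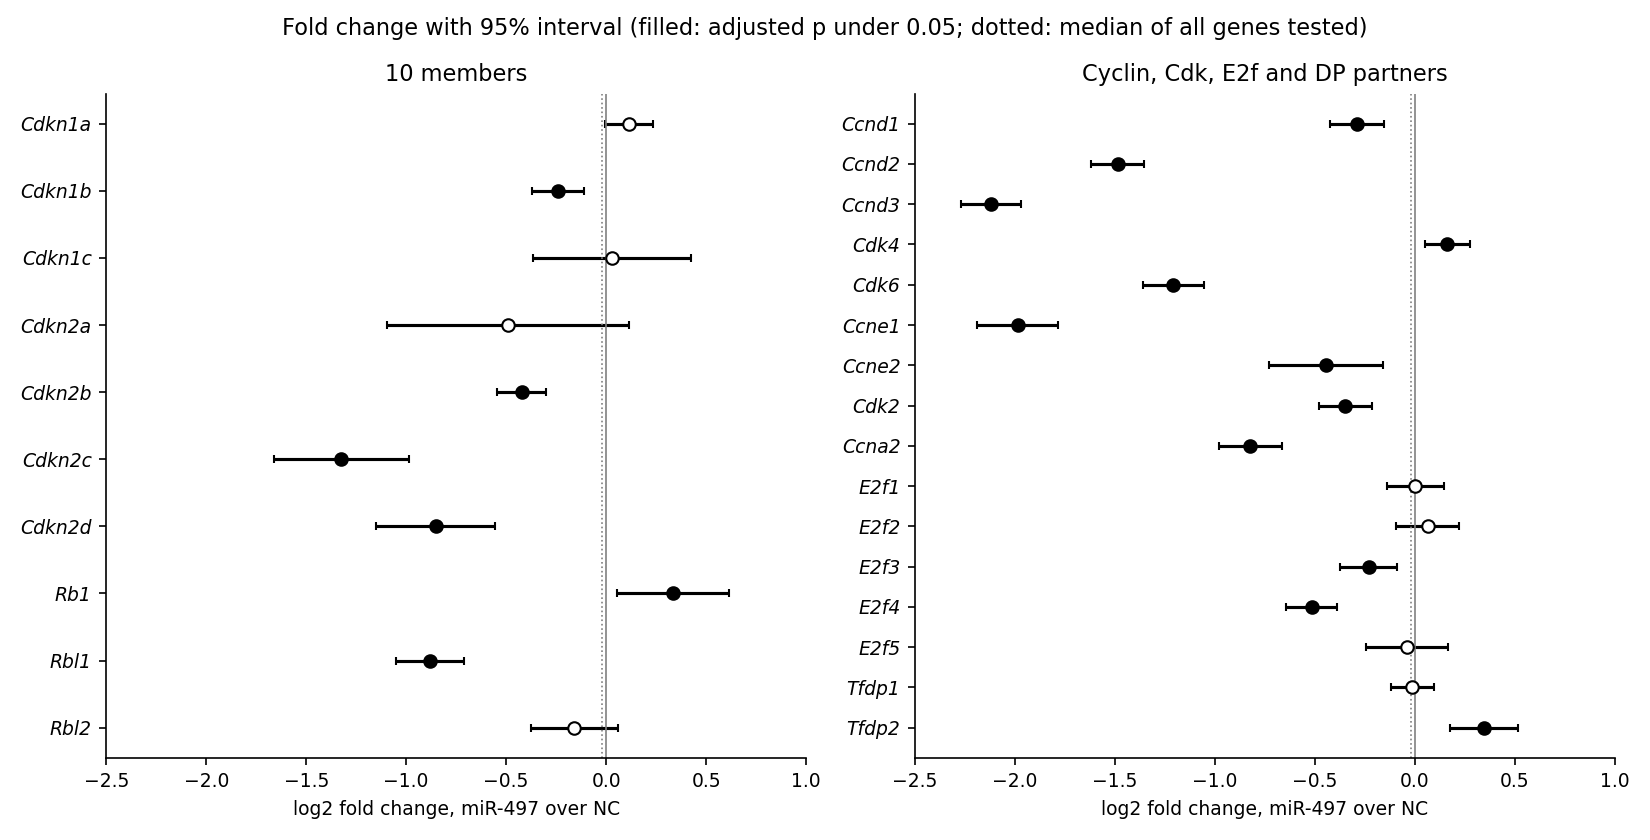
Log2 fold change of miR-497 over NC (x axis) with its 95% interval for the 10 members (left) and for the cyclins, kinases, E2f and DP factors they bind (right); filled points have an edgeR adjusted p under 0.05 and the dotted line is the median of all tested genes, -0.02. Cdkn2c, at -1.32, and Rbl1, at -0.88, lie farthest left with Cdkn2d among the members, while Ccnd3 (-2.12), Ccne1 (-1.99), Ccnd2 (-1.49) and Cdk6 (-1.21) lead among the partners.

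Levels were compared between members per length, as CPM per kb of the union of each gene's exons. In the NC libraries Cdkn2b was highest, at 86.0 ± 1.32 CPM per kb (SD, n = 3), followed by Cdkn1a at 74.0 ± 4.85 and Cdkn1b at 15.8 ± 0.514. These neighbours in the order did not overlap between libraries. Cdkn2d stood at 6.76 ± 0.144 CPM per kb and Rbl1 at 5.78 ± 0.353. Cdkn2a, at 4.73 ± 2.47, ran from 2.52 to 7.39 over its libraries. It thus overlapped Cdkn2d and Rbl1 above it and Cdkn2c, at 3.19 ± 0.265, below it. Cdkn1c (2.15 ± 0.0641 CPM per kb) and Rbl2 (2.06 ± 0.0614) could not be ordered by their libraries, and Rb1 was lowest, at 1.44 ± 0.227.

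With miR-497, Cdkn1a stood at 80.0 ± 1.57 CPM per kb and Cdkn2b at 64.2 ± 4.10. Within each library, the ratio of Cdkn1a to Cdkn2b per kb was 0.809, 0.888 and 0.883 with NC and 1.20, 1.31 and 1.24 with miR-497. The ratio was higher in every miR-497 library, but which gene led with NC depended on the length used. With the longest coding transcript in place of the exon union, the ratio was 1.38, 1.52 and 1.51 with NC and 2.05, 2.24 and 2.11 with miR-497, so that Cdkn1a led in all 6 libraries. Cdkn2c was lowest with miR-497, at 1.27 ± 0.0749 CPM per kb, below Rb1 at 1.82 ± 0.0485, and was above Rb1 with NC. Both statements on Cdkn2c also held with the coding transcript, at 1.38 ± 0.0814 and 2.35 ± 0.0626 CPM per kb with miR-497.

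**Figure D3:**
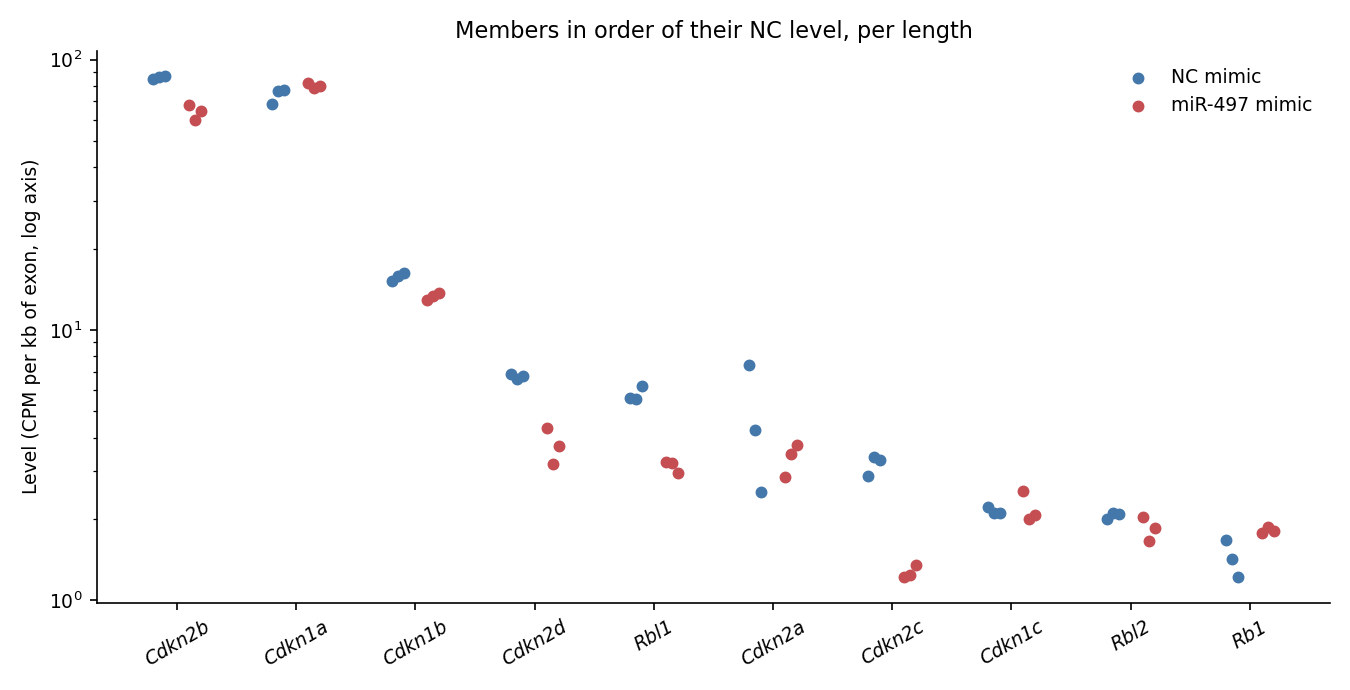
Level of each member per length in CPM per kb of exon (y axis, log scale), ordered by its NC mean, with 1 point for each NC library (blue) and each miR-497 library (red). Cdkn2b and Cdkn1a are the highest, at 86.0 and 74.0 CPM per kb with NC and 64.2 and 80.0 with miR-497, with Cdkn1a above Cdkn2b in both groups if the longest coding transcript is used, and Cdkn2c drops below Rb1.

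The balance among pocket proteins shifted accordingly. Rbl1 made up 60.5%, 61.1% and 65.2% of the pocket-protein counts per kb with NC and 46.1%, 47.7% and 44.7% with the miR-497 mimic. Its share differed by -16.1 percentage points between the group means (p = 0.1 in a 2-sided exact permutation test, which cannot go lower with 3 against 3). Rb1 rose from 15.5% ± 2.61 to 26.7% ± 1.35 of the pool and Rbl2 from 22.2% ± 0.876 to 27.1% ± 2.21 (SD, n = 3), with no overlap between groups for either share. A share moves when any of its parts moves, so the gain of Rbl2's share stands beside a level that was not called.

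Among the 7 inhibitors, the Ink4 genes took 54.2%, 51.5% and 51.1% of counts per kb with NC and 44.0%, 41.9% and 43.4% with miR-497, a difference of -9.17 percentage points (2-sided exact permutation test, p = 0.1, again the smallest possible). The Ink4 pool was mostly Cdkn2b, at 85.4% ± 2.16 and 88.4% ± 0.531 (SD, n = 3), and Cdkn2c supplied 3.17% ± 0.287 and 1.76% ± 0.146 of it. The steepest fall among the members therefore concerned a small part of the Ink4 transcripts.

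The sum of the 7 inhibitors was also set against the kinases Cdk2, Cdk4 and Cdk6. Per kb, the ratio was 2.18, 2.12 and 2.16 with NC and 1.86, 1.76 and 1.86 with miR-497, a difference of -0.33 (2-sided exact permutation test, p = 0.1, as above). This difference depended on how length was treated. It was -0.176 with the longest coding transcript in place of the exon union and 0.0376, in the opposite direction, with raw counts, so no direction is given for the balance of inhibitors and kinases.

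**Figure D4:**
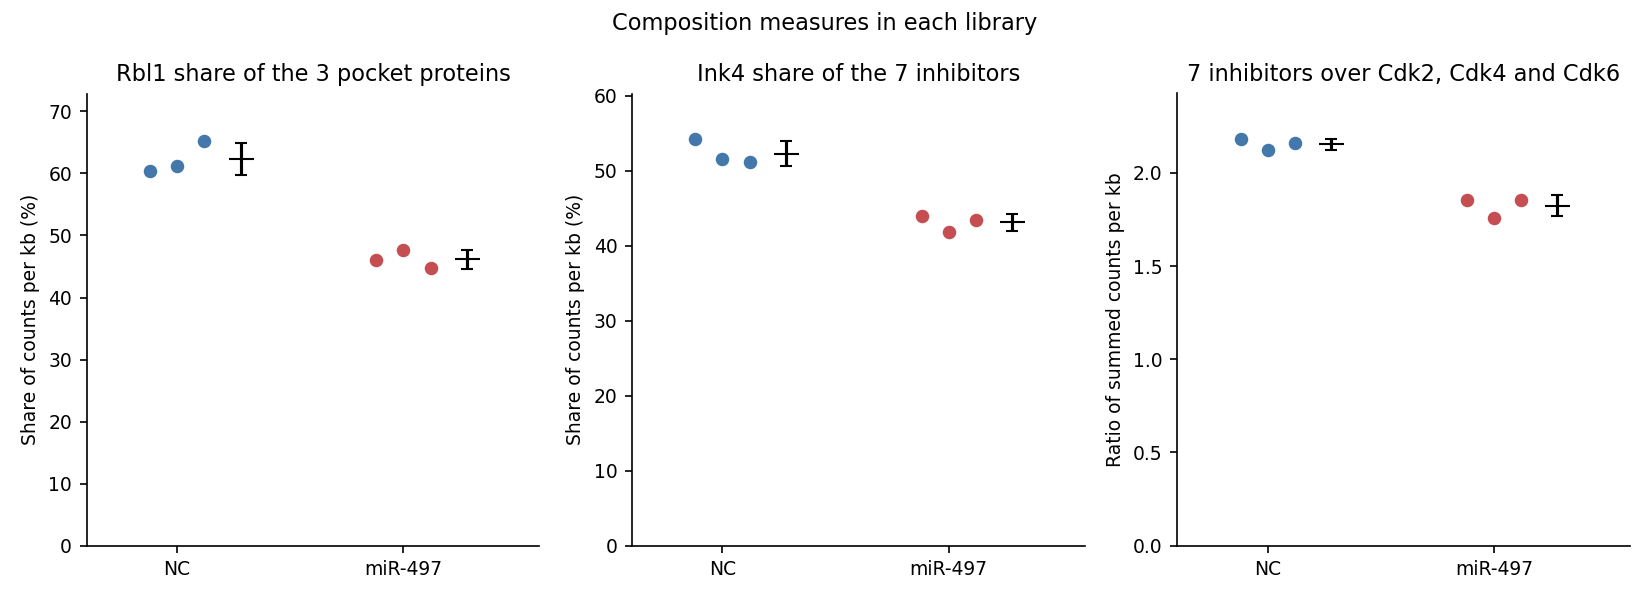
Composition measures in each library (points; bars are the mean with 1 SD, y axes from 0) for NC (blue) and miR-497 (red): the Rbl1 share of the pocket proteins, the Ink4 share of the inhibitors, and the ratio of inhibitors to Cdk2, Cdk4 and Cdk6, all per kb. The groups do not overlap in any panel, with Rbl1 shares of 60.5% to 65.2% against 44.7% to 47.7%; the ratio in the right panel changes direction with raw counts.

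The partners of these proteins were examined in the same fit. Of the 9 cyclin and kinase genes that the inhibitors bind, 8 were lower and 1 was higher, against 26.0% and 23.8% of all tested genes, with a median log2 fold change of -0.82 against -0.02. The targets of Ink4 proteins split: Cdk6 fell from 88.1 ± 5.49 to 38.1 ± 2.79 CPM (SD, n = 3; -1.21, SE 0.0720, edgeR adjusted p = 7.4e-10), whereas Cdk4 was slightly higher, at 235 ± 10.8 and 264 ± 4.30 CPM (0.16, SE 0.0523, edgeR adjusted p = 0.016). The call for Cdk4 was lost with the replicate block (edgeR adjusted p = 0.055) and without NC library 1 (edgeR adjusted p = 0.10). The D-type cyclins Ccnd3 (-2.12), Ccnd2 (-1.49) and Ccnd1 (-0.29) and the E-type cyclins Ccne1 (-1.99) and Ccne2 (-0.44) were lower, as were Ccna2 (-0.82) and Cdk2 (-0.35). The call for Ccne2 was lost without miR-497 library 3 (edgeR adjusted p = 0.056).

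Of the 7 E2f and DP genes whose products pocket proteins hold, 2 were lower and 1 was higher, against 26.0% and 23.8% of all tested genes, with a median of -0.01. E2f4, the usual partner of the Rbl1 and Rbl2 proteins, fell from 76.3 ± 2.42 to 53.4 ± 1.04 CPM (-0.52, SE 0.0606, edgeR adjusted p = 2.2e-06). E2f3 was lower (-0.23, SE 0.0672, edgeR adjusted p = 0.0089), a call lost with the replicate block and GC and length offsets together (-0.18, edgeR adjusted p = 0.080), and Tfdp2 was higher (0.35, SE 0.0806, edgeR adjusted p = 0.0018). E2f1 (0.00313), E2f2 (0.06), E2f5 (-0.04) and Tfdp1 (-0.01) were not called; the values of E2f1, E2f5 and Tfdp1 changed sign under some scalings or with single libraries left out. Of the 7 genes of the MuvB core and its partners, 4 were lower and 2 higher, again beside 26.0% and 23.8% of all tested genes. Lin37, a core subunit needed for repression, had the largest rise (0.95, SE 0.106, edgeR adjusted p = 1.1e-06), followed by the histone chaperone Rbbp4 (0.62, SE 0.0547, edgeR adjusted p = 7.9e-08), while Mybl2 (-0.68) and Foxm1 (-0.63), activators that take over the complex late in the cycle, fell. The core subunits Lin9 (-0.63, SE 0.0908, edgeR adjusted p = 2.1e-05) and Lin54 (-0.22, edgeR adjusted p = 0.037) were lower too, so the core subunits themselves went both ways.

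Of 16 listed genes of S-phase entry that E2f drives, 13 were tested, 11 of them lower, 1 higher and Mcm2 not called, where 26.0% of all tested genes were lower and 23.8% higher, with a median log2 fold change of -0.57. The ribonucleotide reductase subunit Rrm2 fell by 0.73 on the log2 scale (edgeR adjusted p = 2.6e-06, SE 0.0868) and the origin-licensing factor Cdc6 fell by 0.66 (SE 0.0873, edgeR adjusted p = 8e-06). Mcm6, the gene called higher (0.16, edgeR adjusted p = 0.023), lost the call with the replicate block (edgeR adjusted p = 0.073) and without NC library 1 or 2 or miR-497 library 1 or 2 (0.054 to 0.10). Cdt1, Tk1 and Gins2 were listed at 0 in all 6 libraries. The source of these zeros was not tested, so they do not show that the genes were silent. The part of cell cycle distribution in the values of Rbl1 and Cdkn2c was not tested.

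The list for the ubiquitin ligases that remove p27 and p21 held 10 genes, among them Pcna, which is not a ligase gene. Of these, 5 were lower and 3 higher, where 26.0% and 23.8% of all tested genes were. Skp2, the receptor for p27, was not called (0.03, SE 0.0585, edgeR adjusted p = 0.66). The ligase core genes Cul1 (0.49, SE 0.0589, edgeR adjusted p = 2.9e-06) and Rbx1 (0.41, SE 0.0599, edgeR adjusted p = 2.2e-05) rose. Dtl, the receptor that targets p21 on PCNA-bound DNA, fell by 0.64 (SE 0.0682, edgeR adjusted p = 6.8e-07), and Cul4b fell by 0.31 (SE 0.0636, edgeR adjusted p = 0.00068). Also listed, Ddb1 was higher (0.24, SE 0.0569, edgeR adjusted p = 0.0023) and Cks1b was lower (-0.29, SE 0.0700, edgeR adjusted p = 0.0026). Messenger levels say nothing here about the amounts of p21 and p27 protein, which these ligases set.

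The level of Cdkn1a was read beside other genes of the p53 pathway. Of 16 listed, 5 were higher, 5 lower and 6 not called, where 23.8% of all tested genes were higher and 26.0% lower, with a median of 0.00892. With the replicate block and GC and length offsets together, 3 were lower. Trp53inp1 (1.25, SE 0.0546, edgeR adjusted p = 1.8e-11) and the kinase gene Plk2 (0.56, SE 0.0557, edgeR adjusted p = 3.2e-07) rose most, and Phlda3, an Akt repressor (-1.15, SE 0.0536, edgeR adjusted p = 4.3e-11), and Btg2, an antiproliferative gene (-0.80, SE 0.0528, edgeR adjusted p = 2.6e-09), fell most. Like Cdkn1a, the p53 target and antagonist Mdm2 was not called (0.03, SE 0.0507, edgeR adjusted p = 0.66). Among the other listed genes, Trp53 itself was higher (0.38, SE 0.0548, edgeR adjusted p = 2e-05) and Bax was lower (-0.20, SE 0.0537, edgeR adjusted p = 0.0055). The listed genes thus gave no common direction.

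The Ink4 locus, which holds Cdkn2a and Cdkn2b, is silenced in many cells by Polycomb complexes, whereas Cdkn2c and Cdkn2d lie elsewhere. Of 9 listed Polycomb genes, 4 were lower, 2 higher and 3 not called, where 26.0% of all tested genes were lower and 23.8% higher, with a median of -0.16. Without miR-497 library 3, 2 were lower. Rnf2 (0.50, SE 0.0538, edgeR adjusted p = 8.2e-07) and Kdm2b (0.35, SE 0.0773, edgeR adjusted p = 0.0012) rose, and Suz12 (-0.50, SE 0.0570, edgeR adjusted p = 1.5e-06) and Cbx7 fell. Cbx7 was barely expressed, at 1.05 CPM with NC and 0.390 CPM with miR-497 (-1.42, SE 0.455, edgeR adjusted p = 0.015), and its call was lost without NC library 1 or miR-497 library 3 (edgeR adjusted p = 0.075 in both).

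The changes of the members were set beside their seed words, and the part of pairing in these changes was not tested. The 3 members with a 3' UTR word had log2 fold changes of -0.42 (Cdkn2b), -0.16 (Rbl2) and 0.11 (Cdkn1a). The members with the steepest falls, Cdkn2c, Rbl1 and Cdkn2d, had none in 3' UTRs of 373, 1613 and 907 bases. Rbl1 had a 6-base match there, shown in capitals.
Rbl1: ttcagtttaagaGCTGCTtttcctttct
This match lies at chr2:157146563-157146568, on the minus strand. Rbl1 also had 1 of the 7-base words in its coding sequence and Cdkn2b had 2, while the other 8 members had none there; 39.9% of 12914 tested genes had at least 1. For comparison, the 2153 tested genes with 1 of the 7-base words in the 3' UTR and no 8mer had a median log2 fold change of -0.11, and 36.0% of them were called lower, against 23.5% of genes without a word. Cdkn2b and Rbl2 lay below that median and Cdkn1a above it, and of these 3 only Cdkn2b was called. The word of Cdkn1a lies in the longest 3' UTR of 1334 bases and is missing from the shortest annotated form, of 184 bases, and that of Rbl2 is likewise absent from its shortest form of 1171 bases. The counts per gene do not tell which form was present.

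Promoters were searched for the E2F words TTTCCCGC, TTTGGCGC, TTTCGCGC and TTTGCCGC on both strands, from 250 bases before to 50 bases after each RefSeq start (GRCm38.p6). Windows were found for 8 of the members. The Rbl1 window held TTTCGCGC 18 bases before the start, and 1 of the Cdkn2a windows held TTTCCCGC 99 bases before it, whereas 2.27% of 32851 windows in the table held any of these words. Cdkn2a was not called (edgeR adjusted p = 0.17), and its window is not shown. The part of these words in the changes was not tested. The Rbl1 window, chr2:157204485-157204784 on the minus strand, is shown because Rbl1 was called, with the word in capitals.
Rbl1 promoter: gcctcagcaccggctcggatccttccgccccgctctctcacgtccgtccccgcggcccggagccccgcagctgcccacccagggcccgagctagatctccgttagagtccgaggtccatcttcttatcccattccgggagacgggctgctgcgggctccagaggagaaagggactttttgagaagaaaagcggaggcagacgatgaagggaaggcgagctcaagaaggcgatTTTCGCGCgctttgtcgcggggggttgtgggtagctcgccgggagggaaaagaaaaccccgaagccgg
The CHR words TTTGAA and TTCGAA, searched for in the same way, were found in the windows of Cdkn2b and Rbl2 and in 19.2% of all windows. A match is a description of the letters and says nothing of binding.

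The genes whose profile over the 6 libraries was nearest to a called member were found by the Euclidean distance of log2 CPM relative to the NC mean, among 9297 or 9298 genes with a mean log2 CPM of at least 3. For Rbl1 they were Ube2j1 (distance 0.0660) and Insr (0.0739), for Cdkn2c they were Stk38l (0.151) and Parp10 (0.175), and for Cdkn2d they were Entpd6 (0.169) and Rnf19b (0.208). Cdkn2b was nearest to P2ry10b (0.0576) and Sms (0.0700), Cdkn1b to Adam15 (0.0371) and Ddx23 (0.0395), and Rb1 to Hivep3 (0.0859) and Cdk14 (0.129).

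**Figure D5:**
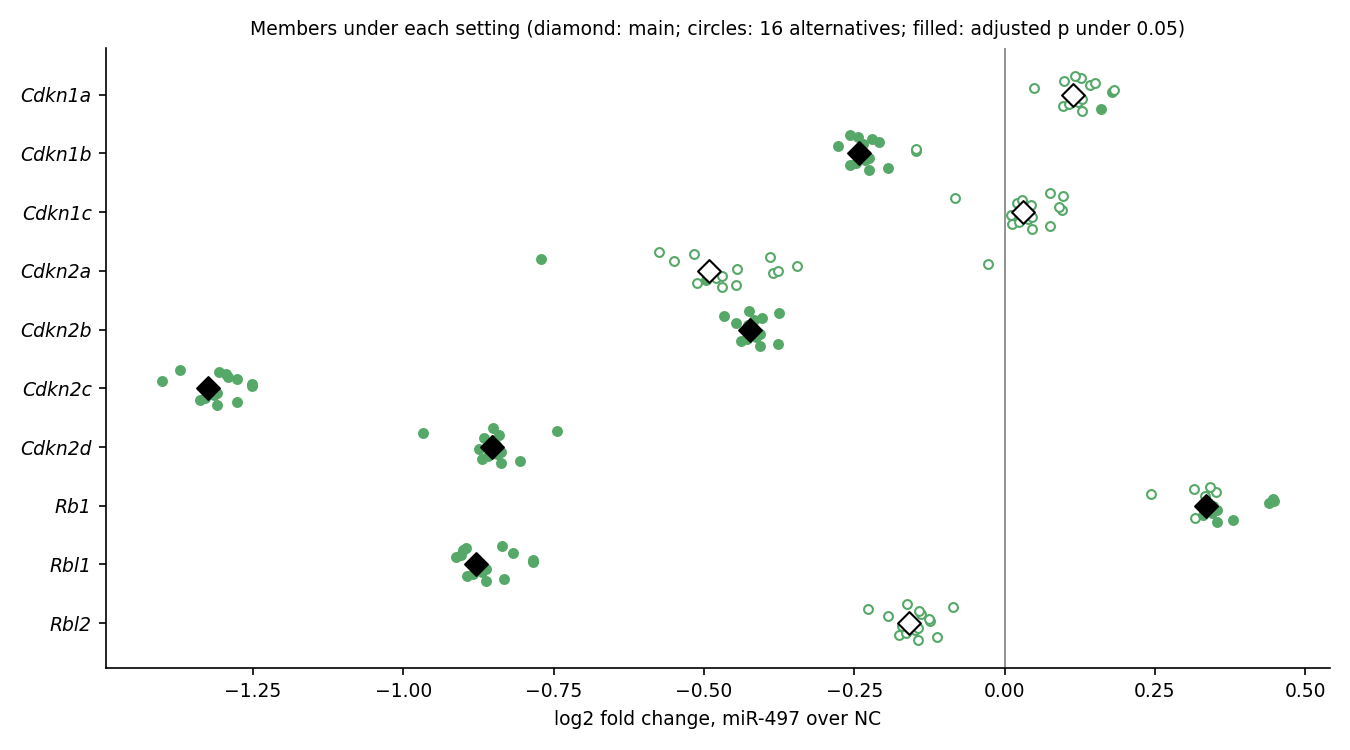
Log2 fold change of each member (x axis) in the main test (diamond) and under 16 alternatives (circles), filled where the adjusted p was under 0.05. Cdkn2b, Cdkn2c, Cdkn2d and Rbl1 stay filled and left of 0 throughout, Rb1 is filled under 9 of 16 alternatives, and the circles of Cdkn2a run from -0.77 to -0.03.

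Cdkn2b, Cdkn2c, Cdkn2d and Rbl1 were called lower under all 16 alternatives, which changed the scaling, the filter, the test or the libraries. Over these, Cdkn2c ran from -1.40 to -1.25, Rbl1 from -0.91 to -0.78, Cdkn2d from -0.97 to -0.74 and Cdkn2b from -0.47 to -0.37. Cdkn1b was called under 14, Rb1 under 9, and Cdkn1a and Cdkn2a, not called in the main test, under 2 each.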

How the data were processed

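Poly(A)-enriched RNA of ADC106 cells was sequenced in 6 libraries, 3 with an NC mimic and 3 with an miR-497 mimic. The authors deposited unnormalized read counts for 55401 Ensembl gene identifiers. The submitters' processing notes name STAR 2.5.4b, featureCounts, Subread 1.6.1, edgeR 3.32.1 and the build GRCm38; the annotation release, strand setting and handling of multiply aligned reads are not given in the sources used here. Groups and replicate numbers came from the titles. Symbols, exon lengths, 3' UTRs and coordinates came from GENCODE M21 (GRCm38), which matched 55141 identifiers, and miRNA and promoter sequences from RefSeq tables (GRCm38.p6).

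The counts were tested with edgeR 4.0.16 in R 4.3.3: filterByExpr (minimum count 10, minimum total 15), TMM scaling, a quasi-likelihood F-test on group, 2-sided, with Benjamini-Hochberg adjustment over 14661 genes and a threshold of 0.05. Standard errors are the log2 fold change over the square root of F. Single measures per library had exact permutation tests (scipy 1.17.1). The test was tried on simulated data over 14377 genes, of which 100 were changed by 1 and 98 by 0.5 on the log2 scale. It recovered 86.0% of those changed by 1 and 66.3% of those changed by 0.5, with 6.21% of calls false. Far fewer genes changed there than the 49.8% called here, so these shares need not hold for the real comparison. Alternatives in scaling were the median-ratio (RLE) method in edgeR, upper-quartile scaling and library totals. With no filter, genes with any count were kept (24072), and another filter asked for a mean count of 50. Other tests were the DESeq2 1.42.0 Wald test and limma 3.58.1 voom. The remaining alternatives were the replicate block, GC and length offsets with and without that block, and each library left out. The members and gene lists were chosen with earlier results of these data known. Named were all members and all cyclin, Cdk, E2f and DP partners. In each other list, up to 2 called genes with the largest rise and 2 with the largest fall were named. Added after their values were seen were Skp2, Pcna, Ddb1, Cks1b, Mdm2, Trp53, Bax, Mtap, Lin9, Lin54, Mcm2, Egfl7, Emcn, Cables1, Cables2 and the overlapping genes. The coding-sequence words, the Rb1, Rbl2, Cdkn2b and Cdkn2c shares and the Cdkn1a to Cdkn2b ratio were added in the same way.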

Additional observations from a re-analysis of the deposited data

How the results depend on the processing

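The counts of all genes called higher and lower stayed within 1.5 times their main values. The number of members called higher, 1 in the main test, was 2 with upper-quartile scaling and with GC and length offsets, 0 with library totals only and with the replicate block, and between 0 and 1 over the 6 fits lacking 1 library. The value of Rb1 was 0.32 with library totals only, 0.35 with the replicate block and 0.24 to 0.45 with 1 library left out. Cdkn1b was -0.15 with GC and length offsets, alone and with the replicate block (edgeR adjusted p = 0.083 and 0.15), and Cdkn1a was 0.16 with upper-quartile scaling and 0.18 with offsets. Cdkn2a was -0.50 and called with no filter (edgeR adjusted p = 0.037), and -0.771 to -0.0283 with 1 library left out, over which Cdkn1c ran from -0.0828 to 0.0973 and changed sign. The cause was not tested.

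The Ink4 share differed by -7.23 percentage points with raw counts. The ratio of inhibitors to kinases differed by -0.176 with transcript length and by 0.0376 with raw counts, by construction a matter of length. With the longest coding transcript, an alternative chosen after seeing the data, the mean log2 ratio of Cdkn1a to Cdkn2b with NC was 0.55 in place of -0.22. Members with a seed word numbered 1 with the shortest 3' UTR and 0 with 8mers only. Values near 0 changed sign for E2f1, E2f5 and Tfdp1. E2f1 was -0.0128 with library totals, -0.00261 with no filter and -0.0094 to 0.0202 with 1 library left out. E2f5 was 0.00522 with upper-quartile scaling and -0.106 to 0.0122 with 1 library left out. Tfdp1 was 0.00303 with RLE scaling, 0.0346 with upper-quartile scaling and 0.00321 with the DESeq2 Wald test. Tfdp1 was 0.0433 with offsets, 0.0442 with offsets and the replicate block, and -0.0433 to 0.0263 with 1 library left out. Of 591 pairs of a named pathway gene and an alternative, 568 kept direction and side of the threshold.

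Same-numbered libraries did not deviate together (correlations of -0.119, -0.0351 and -0.133 for numbers 1 to 3). With 3 libraries in each group, this cannot show whether same-numbered libraries shared a culture or a transfection. The replicate block changed the call of Rb1 and of no other member. Cdkn1c, Cdkn2a, Cdkn2c, Cdkn2d and Rb1 rest on 82 to 380 counts per library, the fewest among the members.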

Other observations

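Proteins outside the Cip/Kip and Ink4 families also restrain Cdk or cyclin activity. Of the 4 listed, Cdkn3, a phosphatase that acts on Cdk2 and peaks in mitosis, fell from 7.43 to 3.85 CPM (-0.95, SE 0.169, edgeR adjusted p = 0.00017), and Ccndbp1, which binds D-type cyclins, rose from 20.5 to 26.8 CPM (0.39, SE 0.0812, edgeR adjusted p = 0.00071). Cables1 and Cables2 were not called (0.10 and -0.18, edgeR adjusted p = 0.53 and 0.095).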
